A study of Homo sapiens with 57 samples.

Results

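The transcripts described here belong to 10 genes of mitosis, and they fall into long and short messenger RNAs. They were chosen by transcript identifier, from a list that names MKI67, CENPF, CENPE, ASPM, TOP2A, BUB1, CCNB1, CDK1 and PLK1 with 1 transcript each and CCNA2 with 2. All 11 listed transcripts were found among the 228715 in each table, and all 11 passed the filter on low counts that left 78478 transcripts for testing. The gene names are those of the list, because the tables give identifiers only. Those of 4000 bases or more are called long. They are MKI67 (ENST00000368654, 12716 bases), ASPM (ENST00000367409, 10863 bases), CENPF (ENST00000366955, 10290 bases), CENPE (ENST00000265148, 8541 bases) and TOP2A (ENST00000423485, 5695 bases). The 6 short ones are BUB1 (ENST00000302759, 3762 bases), CCNA2 (ENST00000618014, 2797 bases, and ENST00000274026, 2748 bases), PLK1 (ENST00000300093, 2160 bases), CCNB1 (ENST00000256442, 2029 bases) and CDK1 (ENST00000395284, 1889 bases). The limit falls between TOP2A, the shortest of the long, and BUB1, the longest of the short.

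The study examined how Spt5, which binds RNA polymerase II during elongation, controls the polymerase, and 9 of its 57 samples measured poly(A) messenger RNA. The cells were HCT116, a human colorectal carcinoma line, in which Spt5 carried an HA tag and a dhfr domain, a fusion that is unstable without its ligand trimethoprim. The 3 groups of 3 libraries differ in the CTR1 form of an Avi-tagged Spt5 fragment, residues 1 to 820, expressed from the vector pCW57. CTR1 is a repeat region of Spt5 that is phosphorylated during elongation. The TE7 cells carried the form of that name, the TA7 cells another altered form, and the WT cells the unaltered region. The labels do not spell out what the letters of the altered forms stand for. All 9 libraries share the Spt5-HA-dhfr background, the absence of trimethoprim and 24 h of doxycycline (2 ug/ml) to induce the fragment. None of the 9 lacks the fragment. Whether each form sits in 1 clone, and whether the replicates were separate cultures, is not stated, so p-values measure the spread between these libraries, which may be technical. The CTR1 form and the cells that carry it cannot be told apart.

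Mitosis needs a set of proteins that accumulate towards the end of each cell cycle and are removed after it. Kinases and cyclins (CDK1, CCNB1, CCNA2, PLK1) drive entry and progression, a checkpoint kinase (BUB1) monitors attachment of chromosomes, and large structural or motor proteins act on chromosomes, kinetochores and spindle poles. Most of these genes are switched on together in G2, through promoters that carry CCAAT boxes, bound by NF-Y, and a cell cycle genes homology region, bound by the MuvB complex. The genes below belong to this programme and differ in the size of the protein and of the message.

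The promoters of 4 genes are shown because they let a reader compare control sequences between long messages (MKI67, ASPM) and short ones (CCNB1, PLK1) of this programme. Each stretch is the 120 bases before the start, read in the direction of transcription, from RefSeq on GRCh38.p14, matched by gene symbol. Capitals mark TTTGAA and TTTAAA, core forms of the homology region, and CCAAT, each on either strand, so that CCAAT can appear as ATTGG and TTTGAA as TTCAAA. The MKI67 stretch is chr10:128126424-128126543 (minus strand), and there the second TTTGAA and an ATTGG share 1 base. The ASPM stretch is chr1:197146670-197146789 (minus strand), the CCNB1 stretch chr5:69167030-69167149 (plus strand) and the PLK1 stretch chr16:23678769-23678888 (plus strand).
MKI67: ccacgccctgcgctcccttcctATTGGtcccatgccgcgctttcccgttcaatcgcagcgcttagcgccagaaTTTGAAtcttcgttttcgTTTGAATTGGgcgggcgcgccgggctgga
ASPM: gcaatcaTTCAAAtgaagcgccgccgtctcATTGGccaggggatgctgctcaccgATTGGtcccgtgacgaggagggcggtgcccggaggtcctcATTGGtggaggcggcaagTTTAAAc
CCNB1: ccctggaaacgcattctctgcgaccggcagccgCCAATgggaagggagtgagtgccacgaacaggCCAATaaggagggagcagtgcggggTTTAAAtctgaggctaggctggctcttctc
PLK1: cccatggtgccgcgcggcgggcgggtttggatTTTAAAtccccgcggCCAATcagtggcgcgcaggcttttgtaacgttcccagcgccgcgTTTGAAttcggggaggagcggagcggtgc

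In windows of 250 bases before to 50 after the start, a CCAAT was found in 9 of the 10 genes, all but CENPE, and in 34.6% of all 35116 promoters of the table. TTTGAA or TTTAAA was found in 8 of the 10 genes, all but BUB1 and CCNA2, and in 24% of all promoters. Among the long genes, MKI67, CENPF, ASPM and TOP2A had both kinds, and among the short ones CCNB1, CDK1 and PLK1 did. Both kinds occurred together in 9.27% of all promoters. These shares count promoters, and CDK1 had 2 of them. By promoter, CCAAT was found in 10 of 11, TTTGAA or TTTAAA in 9 of 11 and both kinds in 8 of 11. Both kinds thus occurred among long and among short genes. A match is a run of letters and not a measured binding site.

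The libraries held 64364751 to 90805283 estimated reads, and a listed transcript had between 809 (CENPE, TE7 replicate 2) and 27020 (MKI67, WT replicate 3) of them. WT replicate 1 was the lowest WT library, and WT replicate 3 the highest, in all 5 long transcripts. TA7 replicate 1 was the lowest TA7 library in all 5. WT replicate 1 also had the lowest TMM scaling factor, 0.92 where the other 8 libraries had 0.971 to 1.037. The results are therefore also given without WT replicate 1 and TA7 replicate 1. Leaving out the lowest library of a group raises that group's mean for the long transcripts. A wider gap to TE7 is thus built in, and calls kept there are no independent check. The defining markers of the line could not be checked, since the tables used here do not pair identifiers with symbols, and the Spt5 transcripts were not analysed here for the same reason.

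The first comparison asks how mitotic messages differ between cells with the TE7 form and cells with the WT form. All 5 long transcripts fell in TE7 cells. MKI67 was at 33.8% of its WT level in TPM, ASPM at 43.4%, CENPE at 47.7%, CENPF at 54.4% and TOP2A at 68.6%. None of the 6 short transcripts passed the test. BUB1 was at 79.0% of WT, CCNA2 at 83.2% (ENST00000274026) and 102.0% (ENST00000618014), PLK1 at 98.7%, CDK1 at 100.7% and CCNB1 at 92.8%. TPM is a transcript level per base of effective length that is scaled to the same total in each library. Tests ran on estimated read counts with edgeR's quasi-likelihood test over all 78478 transcripts, adjusted by Benjamini-Hochberg. At a threshold of 0.05, 9.4% of all transcripts differed and 4.81% were lower in TE7. In bulk RNA, fewer cells in mitosis or G2 and less of a message per cell cannot be told apart.

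MKI67 encodes Ki-67, which coats mitotic chromosomes and is a widely used marker of proliferating cells. It had 7.67, 8.98 and 10.3 TPM in the TE7 libraries, 19.6, 27.9 and 30.9 TPM in the TA7 libraries and 14.9, 26.5 and 38.4 TPM in the WT libraries. The highest TE7 library lay below the lowest library of each other group. The WT libraries were themselves far apart, with the highest 2.58 times the lowest, while the TE7 libraries spanned 1.34 times. The mean was 8.98 ± 1.32 TPM in TE7 and 26.6 ± 11.8 TPM in WT (SD, n = 3 each). The fitted change in reads was -1.49 ± 0.284 (log2, SE), a 2.82-fold lower level, with edgeR adjusted p = 0.0184. The call was lost without TE7 replicate 1, 2 or 3 (adjusted p = 0.0752, 0.0718 and 0.0551) and without WT replicate 2 (0.0582). Over the 18 alternatives the change stayed between -1.73 and -1.20 and the adjusted p between 6.17e-07 and 0.0752. Without both WT replicate 1 and TA7 replicate 1, the lowest libraries of their groups for MKI67, it was called.

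ASPM encodes a spindle pole protein that focuses microtubule ends. It had 3.37, 3.21 and 3.58 TPM in TE7, 6.49, 8.58 and 8.03 TPM in TA7 and 5.76, 8.05 and 9.59 TPM in WT. The TE7 libraries lay close together and below all 6 others. The mean was 3.39 ± 0.186 TPM in TE7 and 7.8 ± 1.93 TPM in WT (SD, n = 3 each). The change in reads was -0.98 ± 0.125 (log2, SE), 1.98-fold lower, with edgeR adjusted p = 0.00425. This transcript was called lower in TE7 than in WT under all 18 alternatives, with an adjusted p of at most 0.0278.

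CENPF encodes a large protein of the nuclear matrix and outer kinetochore. It had 15.1, 14.6 and 15 TPM in TE7, 21, 27.5 and 29.3 TPM in TA7 and 22, 28 and 32.2 TPM in WT. The TE7 libraries differed by 1.8% (SD over mean), and again did not overlap either other group. The change from WT was -0.75 ± 0.11 (log2, SE), 1.68-fold lower, with edgeR adjusted p = 0.00732. CENPF, like ASPM, was called under all 18 alternatives, with an adjusted p of at most 0.0376.

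CENPE encodes the kinesin motor that moves chromosomes to the spindle equator. It had the lowest mean TPM of the 11 in every group, with 2.26, 1.96 and 3.8 TPM in TE7, 4.79, 5.63 and 5.95 TPM in TA7 and 4.68, 5.3 and 6.85 TPM in WT. TE7 replicate 3 was well above the other TE7 libraries but below every TA7 and WT library. The change from WT was -0.85 ± 0.198 (log2, SE), 1.80-fold lower, with edgeR adjusted p = 0.0377. This was the least stable of the 5 calls. It was lost in 8 of the 9 fits that left out 1 library, all but the one without TE7 replicate 3, with adjusted p = 0.133 without TE7 replicate 1, 0.0965 without TE7 replicate 2, and 0.0604, 0.0803 and 0.121 without WT replicate 1, 2 or 3. Leaving out TA7 replicate 1, 2 or 3 gave 0.0636, 0.07 and 0.0699. It was also lost without WT replicate 1 and TA7 replicate 1 together (0.0843), in the fit of the groups compared alone (0.082) and with no filter on low counts (0.0613). Across the 18 alternatives its adjusted p ran from 0.000644 to 0.133 and every fitted change was below 0.

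TOP2A encodes DNA topoisomerase II alpha, which untangles DNA and helps chromosomes condense. It had 18.9, 16.9 and 19.4 TPM in TE7, 26.8, 29.7 and 29.8 TPM in TA7 and 22.6, 26.5 and 31.4 TPM in WT. The TE7 libraries were again the 3 lowest, and the gap between the nearest TE7 and WT libraries was narrower, relative to the level, than for the longer transcripts MKI67, ASPM and CENPF. The change from WT was -0.39 ± 0.069 (log2, SE), 1.31-fold lower, with edgeR adjusted p = 0.0152. The call was lost without TE7 replicate 2 (0.0734) or TE7 replicate 3 (0.0532), within a range of 8.51e-06 to 0.0734 over the 18 alternatives.

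**Figure D1:**
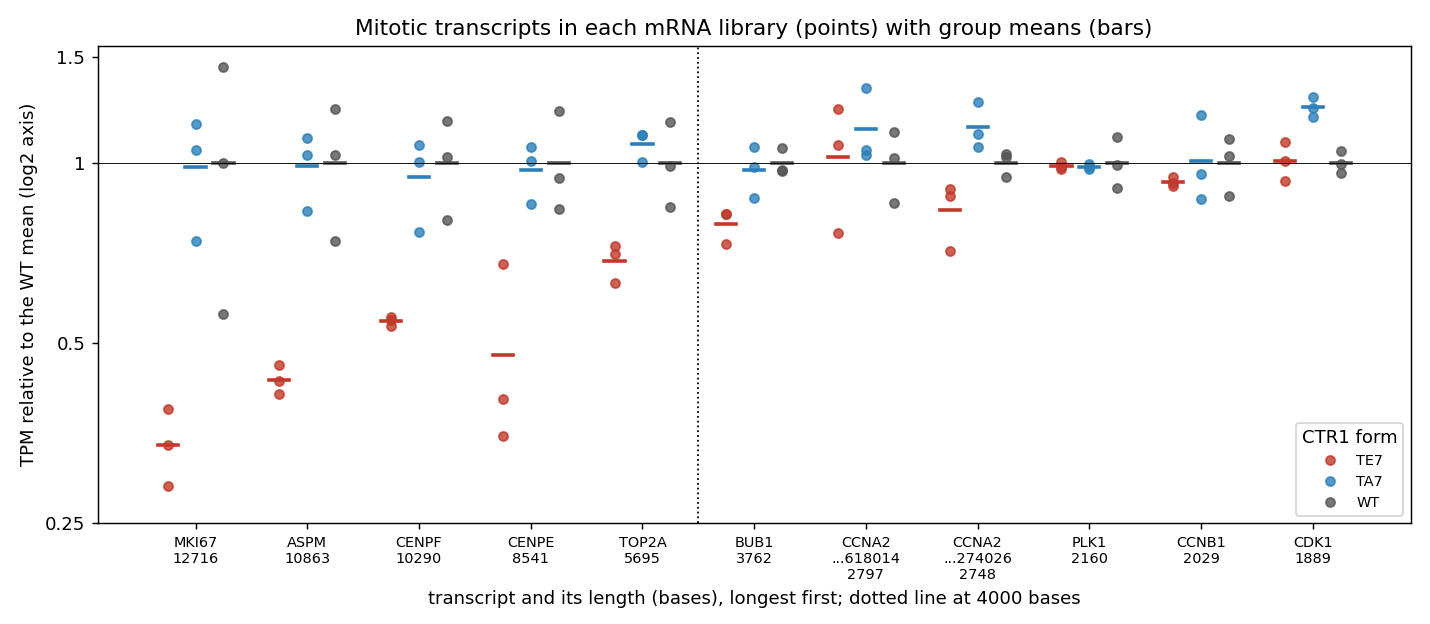
TPM of each of the 11 mitotic transcripts in each library, divided by the WT mean of that transcript (log2 axis), with TE7, TA7 and WT from left to right and transcripts ordered by length. Points are libraries and bars are group means (n = 3). Left of the dotted line at 4000 bases the TE7 points lie below all TA7 and WT points, with means at 33.8% to 68.6% of WT. Right of it the TE7 means lie at 79% to 102% of WT. There the TE7 points lie below all TA7 and WT points for BUB1 and CCNA2 ENST00000274026.

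Counted together, 5 of 5 long transcripts were called lower in TE7 than in WT, with a median log2 change of -0.85. The share called lower over all 78478 transcripts tested was 4.81%. Among all transcripts of at least 5 CPM (reads relative to library size), it was 32.4% at 8000 bases or more. From 4000 to under 8000 bases it was 22%. Of the short transcripts 0 of 6 were called, with a median of -0.013, where the median over all transcripts tested was -0.021. At an unadjusted p under 0.05, which 25.3% of all transcripts passed, the short transcripts also gave 0 of 6. DESeq2, which called 18.7% of all transcripts, gave the same 5 long ones and 0 short ones, and limma on log2(TPM + 1), which called 12.1%, gave those 5 and BUB1. Without TE7 replicate 1, 2 or 3 the number called was 3, 2 and 3, and without WT replicate 2 it was 3, in fits where the share of all transcripts called lower was 2.11%, 1.92%, 2.33% and 2.04%. Without WT replicate 1 and TA7 replicate 1 it was 4, all but CENPE, where 5.41% of all transcripts were called lower. In TPM the TE7 libraries lay below all WT libraries for all 5 long transcripts and for 2 short ones, BUB1 and CCNA2 ENST00000274026, against 16.7% of all transcripts tested.

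Among the short transcripts, BUB1, the spindle checkpoint kinase and the longest of the 6, had 25.7, 22.8 and 25.6 TPM in TE7, 33.1, 30.7 and 27.3 TPM in TA7 and 33.1, 30.3 and 30.4 TPM in WT. The TE7 libraries were the 3 lowest of the 9. The fitted change from WT was -0.25 ± 0.127 (log2, SE) and missed the threshold, with edgeR adjusted p = 0.271. It passed in limma on log2(TPM + 1), at -0.33 with adjusted p = 0.0438, and on log2(TPM + 0.1), at -0.34 with adjusted p = 0.0441, the lowest of a range from 0.0438 to 0.563 over the 18 alternatives.

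The kinase CDK1 and its partner cyclin B1 drive entry into mitosis. CDK1 had 79.9, 68.7 and 74.3 TPM in TE7, 91.1, 95.1 and 88 TPM in TA7 and 71, 73.3 and 77.1 TPM in WT. TE7 and WT overlapped fully, and the change was 0.185 ± 0.11 (log2, SE) with edgeR adjusted p = 0.345. CCNB1 had 32, 32.8 and 31.6 TPM in TE7, 41.5, 33.1 and 30.1 TPM in TA7 and 35.5, 30.4 and 37.9 TPM in WT. All 3 groups overlapped, and the change of TE7 from WT was -0.015 ± 0.155, with adjusted p = 0.971.

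PLK1, the polo-like kinase that acts on centrosomes, kinetochores and cytokinesis, had 90.6, 92.1 and 89.9 TPM in TE7, 91.4, 90.6 and 89.9 TPM in TA7 and 101, 83.5 and 91.2 TPM in WT. Both altered forms lay inside the WT range, and TE7 differed from WT by -0.011 ± 0.113 (log2, SE, edgeR adjusted p = 0.973). This does not show that PLK1 was the same in TE7 and WT, since a change of about this SE could not be told from none.

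Cyclin A2, which acts in S phase and G2, has 2 listed transcripts, and the estimator divides reads that fit both between them. ENST00000274026 had 21.9, 22.4 and 17.7 TPM in TE7, 27.7, 31.4 and 26.3 TPM in TA7 and 25.7, 23.5 and 25.3 TPM in WT. ENST00000618014 had 15.4, 10.9 and 17.6 TPM in TE7, 15.1, 14.8 and 19.1 TPM in TA7 and 12.3, 14.6 and 16.2 TPM in WT. The library with the lowest TPM of the first transcript, TE7 replicate 3, had the highest TE7 value of the second. Summed, CCNA2 had 35.3 ± 1.94 TPM in TE7, 44.8 ± 1.77 TPM in TA7 and 39.2 ± 2 TPM in WT (SD, n = 3 each), and the groups did not overlap in TPM. Of all transcripts tested, 16.7% had TE7 wholly below WT, 10.1% TA7 wholly above WT and 20.8% TE7 wholly below TA7. The test of summed reads gave -0.026 ± 0.08 for TE7 against WT (log2, SE, edgeR adjusted p = 0.892). TPM also divides by effective length, which was 4.8% (ENST00000274026) and 4.6% (ENST00000618014) higher in TE7 than in WT.

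The second comparison asks the same of the TA7 form. None of the 11 transcripts passed the test between TA7 and WT in edgeR, where 0.0612% of all transcripts differed, and DESeq2 and limma on log2(TPM + 1), which called 2.4% and 0.152% of all transcripts, also gave 0 of 11. At an unadjusted p under 0.05, which 7.73% of all transcripts passed, edgeR gave 1 of 11, a share near that of all transcripts. It was CDK1, at 0.31 ± 0.11 (log2, SE), where the edgeR adjusted p was 0.54. CDK1 was higher in TPM in all 3 TA7 libraries than in any WT library, at 123.9% of WT, and CCNA2 ENST00000274026 likewise, at 114.7%, where 10.1% of all transcripts showed such a separation. The fitted differences of the 5 long transcripts ran from -0.11 (CENPF) to 0.10 (TOP2A) on the log2 scale. Their TA7 means were 26.1 ± 5.81 TPM for MKI67, 7.7 ± 1.09 for ASPM, 25.9 ± 4.39 for CENPF, 5.46 ± 0.603 for CENPE and 28.8 ± 1.7 for TOP2A (SD, n = 3). Each overlapped its WT libraries. For MKI67 the SE of 0.278 leaves sizeable changes in either direction undetectable at this spread.

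The third comparison sets TE7 against TA7 and so tests whether the altered forms differ from each other. It shares the TE7 libraries with the first comparison, so its calls are not independent of those. MKI67, ASPM, CENPF and TOP2A were lower in TE7 than in TA7, with log2 changes of -1.40 ± 0.283 (adjusted p = 0.045), -1.01 ± 0.125 (0.011), -0.64 ± 0.11 (0.0281) and -0.49 ± 0.069 (0.0171) in edgeR. CENPE was at -0.86 ± 0.198 and missed the threshold at adjusted p = 0.0636, although its TE7 libraries lay below all TA7 libraries. The count was thus 4 of 5 long and 0 of 6 short transcripts, where 1.78% of all transcripts were lower and 3.07% differed. Among all transcripts of at least 5 CPM (reads relative to library size), 17.4% of those of 8000 bases or more and 11.5% of those from 4000 to under 8000 bases were lower in TE7 than in TA7. At an unadjusted p under 0.05, which 19.3% of all transcripts passed, the short transcripts gave 0 of 6. DESeq2, which called 15.4% of all transcripts, gave all 5 long ones, with adjusted p = 0.00072 for CENPE in a range of 0.00072 to 0.207 over the alternatives. Limma on log2(TPM + 1), which called 3.95%, gave 4 long ones and CDK1 (-0.30, adjusted p = 0.0495, in a range of 0.0491 to 0.893).

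In TPM, the TE7 libraries lay below all TA7 libraries for the 5 long transcripts and for BUB1, CDK1 and CCNA2 ENST00000274026, against 20.8% of all transcripts. The largest difference among the short transcripts was that of CCNA2 ENST00000274026, at -0.30 ± 0.152 with edgeR adjusted p = 0.34. The calls between TE7 and TA7 were lost on leaving out single libraries more often than those between TE7 and WT. The number called was 1 without TE7 replicate 1 (ASPM), 0 without TE7 replicate 2, 1 without TE7 replicate 3 (CENPE), 1 without TA7 replicate 2 (ASPM), 0 without TA7 replicate 3 and 2 without WT replicate 2 (ASPM and TOP2A). In those fits 0.219% (without TA7 replicate 3) to 0.817% (without WT replicate 2) of all transcripts were called lower. MKI67 lost its call also without TA7 replicate 1 (adjusted p = 0.0584). With no filter on low counts the number was 3, where 0.47% of all transcripts were called lower, and MKI67 was the one lost (adjusted p = 0.0574). Without WT replicate 1 and TA7 replicate 1 together the number was 4, the same 4 transcripts, where 2.97% of all transcripts were called lower. TA7 replicate 1 was the lowest TA7 library for each of them, so this is no independent check. All 5 long transcripts kept a lower fitted level in TE7 in each of these fits.

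**Figure D2:**
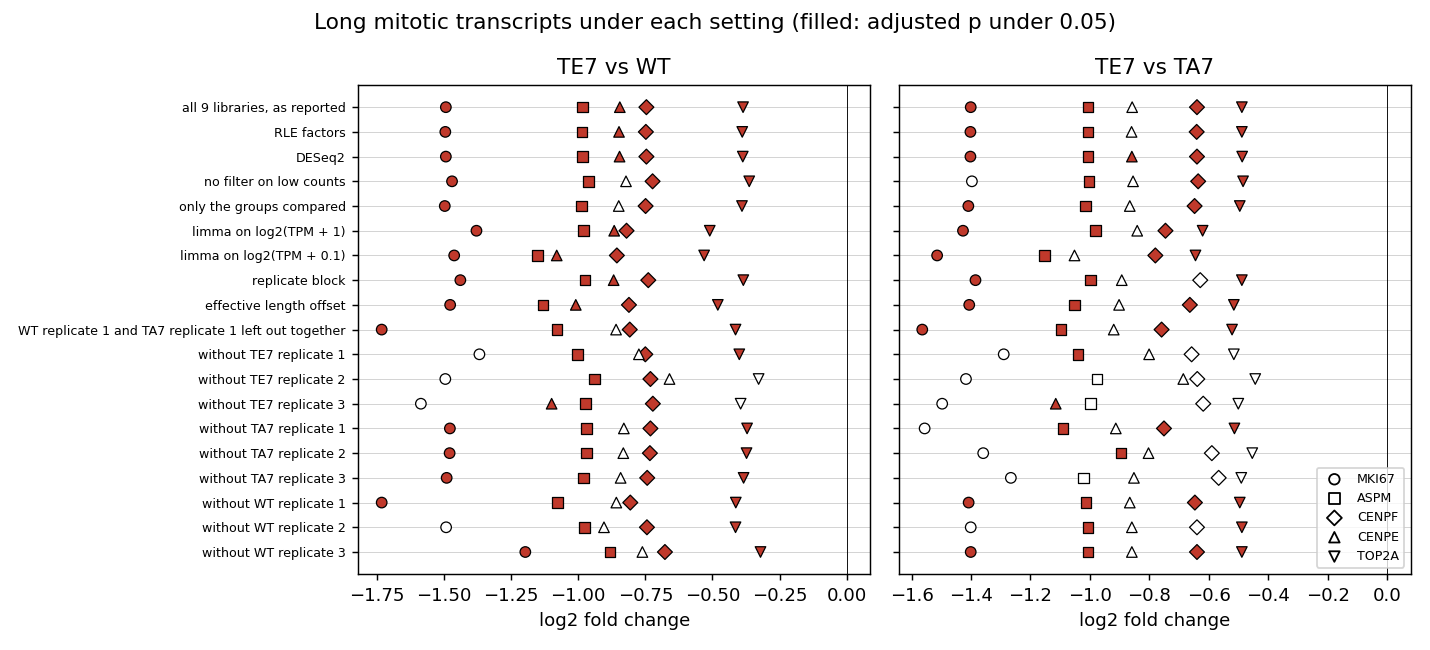
Fitted log2 fold change of the 5 long transcripts (x axis) under each way of processing (rows), for TE7 vs WT on the left and TE7 vs TA7 on the right, with filled symbols for adjusted p under 0.05. All symbols lie left of 0, and in TE7 vs WT the ASPM and CENPF symbols are filled in every row.

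The longer a mitotic transcript was, the lower it tended to be in TE7. Across the 11 transcripts, the Spearman correlation of length with log2 change was -0.93 for TE7 against WT, -0.30 for TA7 against WT and -0.89 for TE7 against TA7. These are descriptions of 11 points that come from the same libraries, and 2 of the points are of 1 gene, CCNA2. Transcripts of all kinds showed a trend with length in the same direction, and the mitotic ones can be read against it. Among all transcripts with at least 5 CPM, the median change of TE7 from WT was -0.43 at 8000 bases or more (n = 1070), -0.16 from 4000 to under 8000 bases (n = 4875), 0.087 from 2000 to under 4000 bases (n = 7068) and 0.20 from 1000 to under 2000 bases (n = 4191).

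Against these medians, TOP2A, at -0.39, lay within the middle 50% of its length class, which ran from -0.52 to 0.17. CENPF, at -0.75, also lay within that of the longest class, which ran from -0.84 to -0.09, and CENPE, at -0.845, lay at its lower edge of -0.840. ASPM (-0.98) and MKI67 (-1.49) lay below it. Among the short transcripts, BUB1 (-0.248) lay at the lower edge of its class, -0.246, while both CCNA2 transcripts, PLK1 and CCNB1 lay within it and CDK1 lay near the median of the shortest class. In the longest class 32.4% of all transcripts were called lower in TE7 than in WT, and in the class from 4000 to under 8000 bases 22% were.

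**Figure D3:**
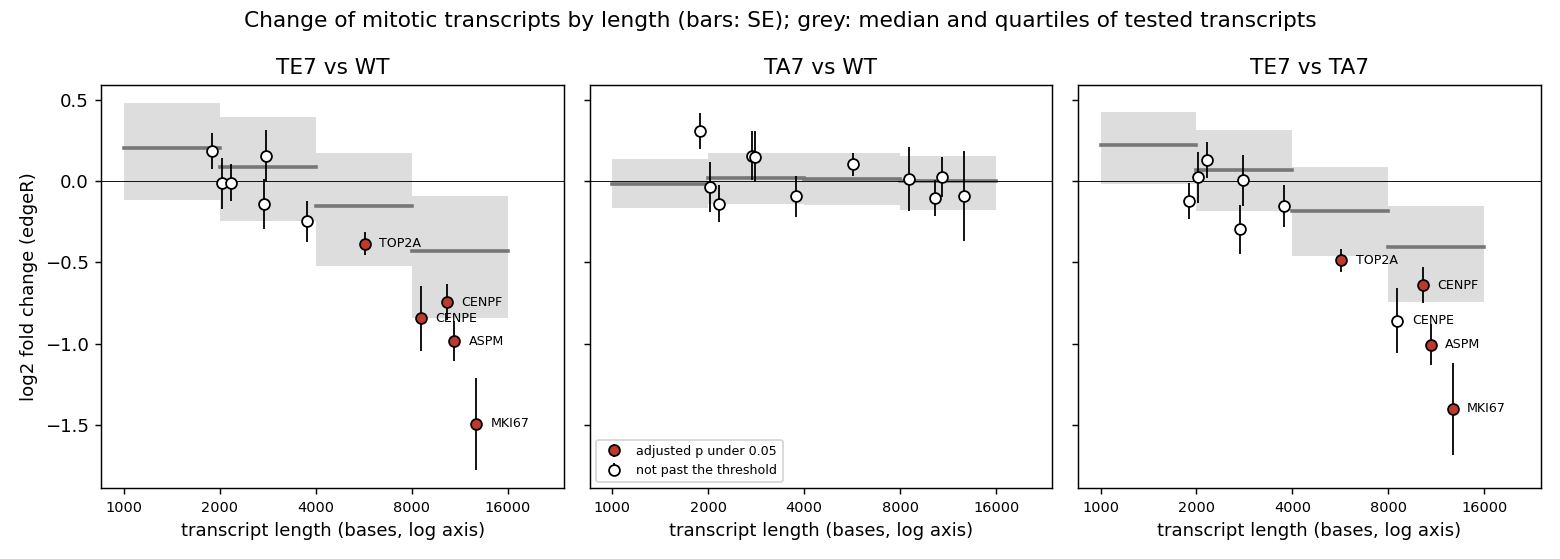
Log2 fold change from edgeR (y axis, bars are SE) of the 11 mitotic transcripts against transcript length (log axis), for TE7 vs WT, TA7 vs WT and TE7 vs TA7. Grey boxes show the quartiles and grey lines the median of all transcripts of at least 5 CPM in each length class, and filled points passed the adjusted threshold. In TE7 vs WT the points tend to descend with length, to -1.49 for MKI67, and in TA7 vs WT they stay between -0.14 and 0.31.

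Summed over transcripts, the long group had 47.3, 45.6 and 52.1 TPM in TE7, 78.7, 99.4 and 104 TPM in TA7 and 69.9, 94.3 and 118 TPM in WT. The short group had 265, 250 and 257 TPM in TE7, 300, 296 and 281 TPM in TA7 and 279, 256 and 278 TPM in WT. The long sum thus separated TE7 from both other groups, while the short sum of TE7 overlapped that of WT and lay below that of TA7. The ratio of the long to the short sum was 0.178, 0.183 and 0.203 in TE7, 0.263, 0.336 and 0.37 in TA7 and 0.25, 0.369 and 0.426 in WT. The highest TE7 ratio was below the lowest ratio of either other group, which belonged to WT replicate 1. Means were 0.188 ± 0.013 in TE7, 0.323 ± 0.055 in TA7 and 0.349 ± 0.09 in WT (SD, n = 3).

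As a difference of mean log2 ratios, TE7 minus WT was -0.86, TE7 minus TA7 was -0.77 and TA7 minus WT was -0.09. No test was made of this ratio, since it sums chosen transcripts. A limit of 8000 bases, which counts TOP2A as short, gave -1.02 for TE7 minus WT. Without WT replicate 1 that difference was -1.08 and without WT replicate 3 it was -0.70. TA7 minus WT had no fixed sign: it was 0.052 without TA7 replicate 1, 0.072 without WT replicate 3 and -0.31 without WT replicate 1.

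**Figure D4:**
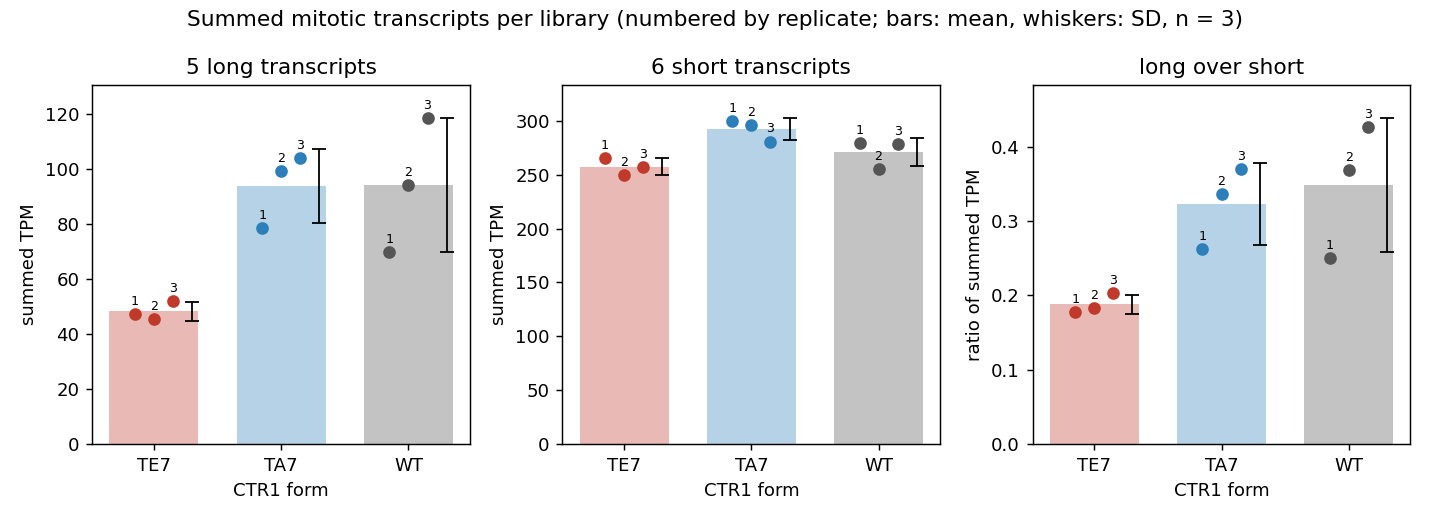
Summed TPM of the 5 long transcripts, summed TPM of the 6 short transcripts, and the ratio of the sums (y axes) in TE7, TA7 and WT libraries. Bars are group means, whiskers the SD (n = 3) and numbered points the libraries. The long sums of TE7 reach 52.1 at most and lie below all 6 others, whose lowest is 69.9 in WT replicate 1, while the short sums lie between 250 and 300 in all libraries.

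The TPM values divide reads by an effective length, which the authors' software estimated for each transcript in each library. It is not a plain count of positions, since the WT mean for MKI67, 12732, exceeded the 12716 bases of the transcript. This length differed between the groups. For CENPE, with 8541 bases, it averaged 6578 in TE7, 6409 in TA7 and 5829 in WT, so TE7 was 12.8% above WT. It was 10.4% above WT for ASPM, 8.6% for CDK1, 6.5% for TOP2A and 4.3% for CENPF. For CCNA2 it was 4.8% (ENST00000274026) and 4.6% (ENST00000618014) above WT, for BUB1 3.2% and for CCNB1 2.7%. It was 1.3% below WT for MKI67 and 2.7% below for PLK1. This divisor enters the TPM values and so the limma fits on them, among them the calls of BUB1 and CDK1. It does not enter the read counts tested above with edgeR and DESeq2. When effective lengths were added to the edgeR model, the changes from WT were -1.48 for MKI67, -1.13 for ASPM, -1.01 for CENPE, -0.81 for CENPF and -0.48 for TOP2A, and the same 5 transcripts were called. That model did not call BUB1 for TE7 vs WT (-0.295, edgeR adjusted p = 0.167) or CDK1 for TE7 vs TA7 (-0.168, 0.237). For CDK1 the effective length averaged 1277 in TE7 and 1255 in TA7. The limma fits also used TPM without TMM factors. Why limma called BUB1 and CDK1 was not tested.

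The order of levels was much the same in the 3 forms. Ranks changed only between PLK1 and CDK1 and among TOP2A, CENPF and MKI67. In TE7, PLK1 and CDK1 were highest, followed by CCNA2 (summed), CCNB1, BUB1, TOP2A, CENPF, MKI67, ASPM and CENPE. In TA7, CDK1 and PLK1 led by nearly equal levels (91.4 ± 3.57 and 90.7 ± 0.721 TPM), and TOP2A, MKI67 and CENPF, which followed BUB1, did not differ beyond their spread. The WT order was that of TE7 except that CENPF stood above TOP2A. In WT, CENPF (27.4 ± 5.14 TPM), TOP2A (26.8 ± 4.42) and MKI67 (26.6 ± 11.8) were neighbours that did not differ beyond their spread. In TE7 the levels of those 3 were apart, with TOP2A at 18.4 ± 1.32 TPM, CENPF at 14.9 ± 0.272 TPM and MKI67 at 8.98 ± 1.32 TPM (SD, n = 3), and no library of one overlapped a library of the next.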

How the data were processed

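Per the labels' protocols, RNA of the 9 libraries was isolated with Trizol and oligo-dT, and 1 ug went into a Tecan/Nugen kit. The submitters' processing notes name cutadapt 2.3, Salmon 1.3.0 and the hg19 build. Which transcript set and bias options were used is not stated. Per the file headers, each table deposited by the authors gives a transcript's length, effective length, TPM and estimated count. The authors' estimated counts are not normalized and share reads among similar transcripts. The authors' TPM values are scaled per effective length and sum to 1000000 in each library.

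Estimated counts were rounded, filtered with filterByExpr and fitted in 1 edgeR 4.0.16 quasi-likelihood model with TMM factors and group as its only term (R 4.3.3, glmQLFit and glmQLFTest, contrasts TE7 minus WT, TA7 minus WT and TE7 minus TA7). P-values were adjusted by Benjamini-Hochberg over all tested transcripts. The script was tested on simulated data. The listed transcripts, the limit of 4000 bases, the motifs and the alternatives were chosen with earlier results of these data known. All 11 listed transcripts are named, whatever their values. Alternatives were DESeq2 1.42.0, limma 3.58.1 with pseudocounts of 1 and 0.1, RLE factors, no filter, only the groups compared, a replicate block, each library left out, and WT replicate 1 and TA7 replicate 1 left out. An effective length offset was chosen after seeing the data. Promoters are of GRCh38.p14, and no coordinates were moved between builds. Proteins, other mitotic genes and the other 48 samples were not analysed here.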

Additional observations from a re-analysis of the deposited data

How the results depend on the processing

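The number of mitotic transcripts called ranged from 2 to 4 for TE7 vs WT and from 0 to 4 for TE7 vs TA7 when 1 library was left out. In those fits the share of all transcripts called lower ran from 1.92% to 5.34% and from 0.219% to 2.81%. For TA7 vs WT the number was 0 under every alternative run, where at most 2.4% of all transcripts were called (DESeq2). Same-numbered libraries deviated together with correlations from -0.049 to 0.236 over 19820 transcripts, not all above 0.1. Libraries with different numbers gave -0.252 to 0.114. Against WT, replicates 1 and 3 correlated most with the same number in TE7 (0.091 and 0.138) and in TA7 (0.236 and 0.171). Replicate 2 did not, and between TE7 and TA7 only replicate 3 did. Whether the numbers pair the libraries is thus not settled, and the main fit did not pair them. The long transcripts also followed the numbers in part. Replicate 3 was highest in 5 of 5 in WT and in 4 of 5 in TA7 and in TE7. Among the 6 short ones it was highest in 3, 1 and 1. The ratio of long to short sums rose from replicate 1 to replicate 3 in each group. For TE7 vs WT the block took the SE from 0.284 to 0.130 for MKI67 and from 0.069 to 0.070 for TOP2A. With the replicate block, 5 were called for TE7 vs WT, 0 for TA7 vs WT and 3 for TE7 vs TA7, where CENPF had adjusted p = 0.0513. The same fits called 6.77%, 0% and 1.4% of all transcripts. The block could not change the difference in the ratio of long to short sums, -0.858 for TE7 minus WT. The mean of same-numbered differences equals the difference of group means by arithmetic. In limma, CCNA2 with both transcripts summed passed for TE7 vs TA7, at -0.336 and -0.343 (pseudocounts of 1 and 0.1). At either pseudocount limma called 3.95% of all transcripts in that comparison. The summed CCNA2 was not called in edgeR (-0.179, adjusted p = 0.273) or DESeq2 (-0.179, adjusted p = 0.197).

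The sign changed under some alternative only for values that passed no test, and for the untested TA7 minus WT difference of the long to short ratio (-0.311 to 0.072 with 1 library left out). Left out in turn, single libraries gave ranges for TE7 vs WT of -0.115 to 0.098 (CCNB1), -0.091 to 0.151 (PLK1) and -0.079 to 0.045 (CCNA2 summed). For TA7 vs WT they gave -0.324 to 0.204 (MKI67), -0.176 to 0.02 (CENPF), -0.046 to 0.098 (CENPE), -0.074 to 0.125 (ASPM), -0.171 to 0.051 (BUB1), -0.197 to 0.083 (CCNB1) and -0.22 to 0.029 (PLK1). For TE7 vs TA7 they gave -0.091 to 0.196 (CCNB1) and -0.106 to 0.169 (CCNA2 ENST00000618014). Without WT replicate 1 and TA7 replicate 1 together, TE7 vs WT was 0.097 (CCNB1), 0.15 (PLK1) and 0.044 (CCNA2 summed), TA7 vs WT was 0.01 (PLK1) and TE7 vs TA7 was -0.038 (CCNA2 ENST00000618014). With no filter TE7 vs WT was 0.007 (CCNB1) and 0.012 (PLK1). With the replicate block it was 0.001 (PLK1), and TE7 vs TA7 was -0.007 (CCNA2 ENST00000618014). With the effective length offset TE7 vs WT was 0.025 (PLK1), TA7 vs WT was -0.107 (CENPE) and -0.08 (ASPM), and TE7 vs TA7 was -0.027 (CCNA2 ENST00000618014). In limma, at pseudocounts of 1 and 0.1, TA7 vs WT was 0.048 and 0.052 (MKI67), -0.025 and -0.028 (CENPE) and 0.004 at both (CCNB1), with -0.001 for ASPM at a pseudocount of 1. TE7 vs TA7 was -0.103 and -0.105 (CCNB1) and -0.161 and -0.172 (CCNA2 ENST00000618014). With only the groups compared it was -0.004 (CCNA2 ENST00000618014). The cause was not tested. Fits without a library have fewer degrees of freedom. With 3 libraries per group, changes of the size seen in BUB1 or CDK1 may go uncalled.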
